A study of Homo sapiens with 6 samples.

Results

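Some H3K4me2 regions that were called after LSD1 inhibition, and not under vehicle, lay close to a region that vehicle-treated cells already had. These vehicle-adjacent regions were chosen by which lists held a record there and by distance. The 3 peak lists (vehicle, GSK 4 h and GSK 24 h) were pooled over chromosomes 1 to 22, and records overlapping by at least 1 bp were merged into 147111 union regions. Of these, 16137 (11%) held a record of both GSK lists and none of the vehicle list. The 6329 regions (4.3% of the union) whose edge lay less than 5000 bp from the nearest vehicle record are described here (called new regions where they are set beside a vehicle record, meaning only that the vehicle list has no record there), beside the other 9808, called distant inhibitor-only regions.

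H3K4me2 was profiled by ChIP-seq in LNCaP, a prostate cancer line that responds to androgen, after growth in hormone-depleted serum. The 6 samples formed 3 groups of 2 replicates: vehicle, GSK2879552 (an LSD1 inhibitor) for 4 h, and GSK2879552 for 24 h. Per the labels, both inhibitor groups also received the androgen DHT and the vehicle group received no GSK, while the treatment protocol names the inhibitor alone. Effects of inhibitor and androgen therefore cannot be told apart. Each list combined both replicates, so no value below has a replicate error and no difference between conditions was tested. The mark was measured in 1 cell line, whose identity could not be checked against marker genes because no region was assigned to a gene.

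H3K4me2 is dimethylation of lysine 4 on the tail of histone H3, and is found at enhancers and promoters. It is often lower directly at an active start site and higher on the nucleosomes beside it. LSD1 (KDM1A) removes mono- and dimethyl groups from this lysine, usually in a complex with CoREST, and also acts as a coactivator of the androgen receptor. A narrow peak caller can report 1 broad domain of the mark as several neighbouring records.

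The lists had similar depth, with 8.98 to 10.1 tags per kb of effective genome as inferred from the peak values, and a median summit was covered by 21 to 23 fragments. The number of fragments at a summit (the pileup) was divided by the lowest background of its list. This gave a summit height in multiples of the genome-wide background. It allows for depth when lists are set side by side, but not for differences in how strongly each ChIP enriched the mark. Local background is the caller's own expectation at a summit on the same scale, where 1 is the genome-wide level. As read from the values it comes from a 10 kb window of the same ChIP data, so it rises wherever the surroundings carry signal. All intervals on shares are 95% Wilson intervals and cover counting error only.

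The tallest vehicle-adjacent regions show the arrangement. They are the 8, outside chromosome 8, that ranked first when each region was given the smaller of its GSK 4 h and 24 h heights, with positions in hg19 counted from 1. Tall does not mean strongly enriched here, since local background at these 8 was 21.2 to 37.1 at 4 h and 15.3 to 46.9 at 24 h. Fold, the caller's ratio of summit to local background, was 1.64 to 2.54 and 1.79 to 3.99. The fold percentile within the list was 0.01 to 1.95 at 4 h and 0.04 to 29.2 at 24 h. The first was chr1:161416688-161417002, which lay 153 bp from a vehicle record. Its pileup was 119 at 4 h and 140 at 24 h, or heights of 63.2 and 71.2. The vehicle record beside it was taller than the region itself, at 190 under vehicle, 110 at 4 h and 102 at 24 h. The second, chr1:161431449-161431778, lay on the same chromosome, 138 bp from a vehicle record, with a pileup of 112 at 4 h and 137 at 24 h (heights 59.5 and 69.7). Its neighbour had a height of 188 under vehicle, 110 at 4 h and 94.1 at 24 h. On the neighbour's side, the records around these 2 regions had a closely similar layout, with the neighbour starting 311 bp and 303 bp from the region's centre. Whether the places share sequence was not tested.

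The third was chr10:104405461-104406720, 613 bp from its neighbour, with heights of 59.5 and 62.6. There the neighbour had a height of 166 under vehicle, 64.8 at 4 h and 28.0 at 24 h, so that by 24 h the new region was the taller of the pair. At chr19:1269993-1271046, 207 bp from a vehicle record, heights were 59.5 and 52.9. The neighbour there reached 124 under vehicle and was in neither GSK list. At chr17:2299483-2300055, 1800 bp from its neighbour, heights were 57.4 and 51.9, and the neighbour stood at 135, 56.3 and 43.7. At chr10:80831303-80831833, 754 bp from its neighbour, heights were 65.9 and 48.8, beside a neighbour at 124, 65.4 and 46.3. In these 6 regions the nearest vehicle record was lower in both GSK lists or absent from them.

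The remaining 2 of the 8 were different. The region chr2:92310534-92310828 had a pileup of 94 at 4 h and 166 at 24 h (heights 49.9 and 84.4), beside a vehicle record at 60.0, 55.3 and 87.0. The region chr17:22258187-22258658 had a pileup of 92 and 106 (heights 48.9 and 53.9), beside a vehicle record at 41.7, 41.4 and 53.9. Both neighbours were about level at 4 h and higher at 24 h. These regions lay 15236 bp and 4215 bp from the longest stretch of their chromosome without any record, where centromeric sequence is usually found. Of the 50 tallest vehicle-adjacent regions, 4 lay within 1 Mb of such a stretch, against 103 of all 6329.

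**Figure D1:**
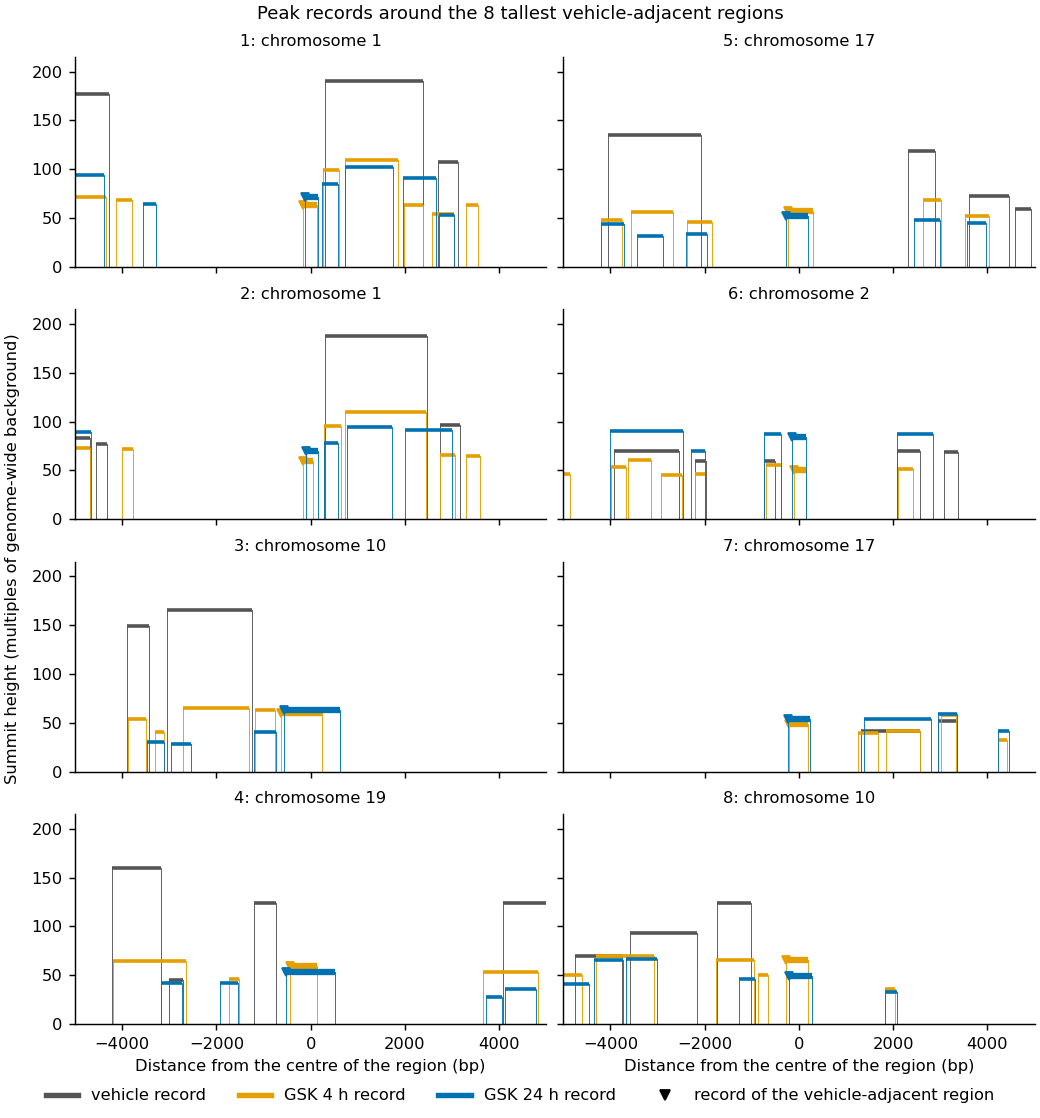
Peak records within 5 kb of the 8 tallest vehicle-adjacent regions, with distance from the region's centre (bp) on the x axis and summit height (multiples of genome-wide background) on the y axis, as horizontal bars spanning each record in the vehicle (grey), GSK 4 h (orange) and GSK 24 h (blue) lists. Triangles mark the region's own records, which reached 48.8 to 84.4, beside vehicle records of up to 190.

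The tall examples were not typical in size. The median vehicle-adjacent region had a pileup of 19 in each GSK list, or a height of 10.1 (quartiles 7.44 to 16.5) at 4 h and 9.66 (7.12 to 14.8) at 24 h. Distant inhibitor-only regions were lower, with a median pileup of 13 and median heights of 6.91 and 6.61. GSK records that overlapped a vehicle record were higher, at 15.4 and 14.2. The median over all records was 11.2 at 4 h and 10.7 at 24 h. The vehicle-adjacent regions thus lay in height between the distant regions and the sites shared with vehicle at both times. A higher local background demands a taller summit for a call, and the part of this in the order was not tested.

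Their surroundings differed more than their heights. Median local background was 1.89 at 4 h and 2.06 at 24 h for vehicle-adjacent regions, and 1 at both times for distant ones. Background was at the genome-wide level for 15.9% and 9.57% of the vehicle-adjacent regions, against 77.1% and 70.5% of the distant regions. Nearness to a vehicle record was part of the choice, so this difference is a description. Because the caller divides a summit by its background, the order by fold enrichment was the opposite of the order by height. The median fold percentile within its own list was 25.9 and 22.2 for vehicle-adjacent regions and 43.1 and 41.8 for distant ones. The median -log10 q was 6.18 at 4 h and 5.61 at 24 h, against 5.68 and 4.81 for the distant regions. Records had a median length of 313 bp at 4 h and 344 bp at 24 h, close to the 310 bp and 361 bp of the distant regions and below the 439 bp and 495 bp over all records.

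Distance was used by the rule and is given as a description. The median was 649 bp and the quartiles were 248 bp and 2219 bp. The fullest class of 100 bp ran from 100 to 200 bp and held 717 regions, while the median class held 56 regions between 2500 and 5000 bp. Beyond the limit, from 5000 to 10000 bp, the median class of inhibitor-only regions held 51.5. The excess at short range therefore ended well inside the limit. Classes from 4000 to 5000 bp held 48 to 64 regions and those from 5000 to 5900 bp held 62 to 72. The count thus stepped up slightly at the limit before it declined.

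**Figure D2:**
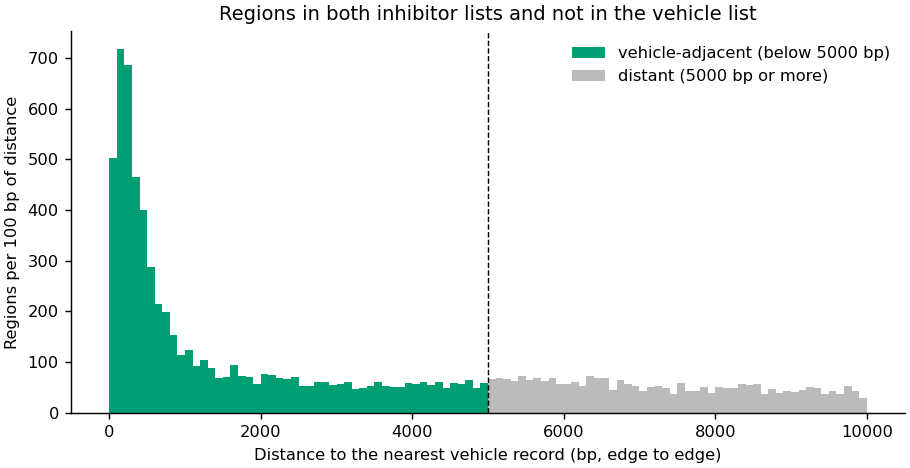
Number of regions in both GSK lists and absent from vehicle, in 100 bp classes of edge-to-edge distance to the nearest vehicle record (bp), with the 5000 bp limit as a dashed line. The highest bar, at 100 to 200 bp, holds 717 regions, and bars just beyond the limit are slightly higher than those just inside it.

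Of the 6329 regions, 1602 (25.3%) lay below 250 bp, 1170 (18.5%) at 250 to 500 bp and 969 (15.3%) at 500 to 1000 bp. A further 1201 (19.0%) lay at 1000 to 2500 bp and 1387 (21.9%) at 2500 to 5000 bp. Height varied little along this range. At 4 h the median was 10.6 below 250 bp and 11.2 at 500 to 1000 bp, and it was 9.03 at 2500 to 5000 bp. From summit to summit, the 24 h record lay a median of 1230 bp from the vehicle summit. The 4 h and 24 h summits of 1 region lay a median of 77 bp apart, close to the 94 bp of the distant regions.

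The regions at the ends of the range were small. A gap of 0 bp was found for 4 regions. Among them chr6:10850867-10851317 had heights of 8.5 and 9.16 and touched a vehicle record of height 6.24 that was in neither GSK list. The region chr12:96781436-96782100 had a pileup of 12 at 4 h and 23 at 24 h (heights 6.38 and 11.7), and the 221 bp vehicle record it touched (height 4.80) was also absent from both GSK lists. The region chr11:111273028-111273532 had a pileup of 21 at both times beside a vehicle record of height 6.72 that was absent later. Only at the last of them, chr1:175976538-175976890 (heights 6.91 and 6.61), was the touching record still called, with heights of 9.12, 7.97 and 9.16. At 3 of these 4 places the lists thus held directly abutting records, the vehicle one in place of the GSK ones.

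Just inside the limit, chr12:95594334-95594665 (4999 bp) had heights of 5.84 and 4.58, and chr9:22097246-22098187 (4993 bp) had 6.38 and 6.61. The regions chr5:137002317-137002872 and chr12:38523667-38523904 (each 4994 bp) had heights of 8.5 and 5.60, and of 5.84 and 5.09. Just outside it, chr21:28162225-28163209 (5002 bp) had 6.91 and 5.09, and chr18:67794591-67794983 (5005 bp) had 10.1 and 7.12. At 5006 bp, chr4:169732300-169732798 had 4.25 and 5.09, and chr14:75455552-75455930 had 5.31 and 6.61. The values on the 2 sides of the limit overlapped.

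The vehicle record was equally often on either side, at a lower coordinate for 3151 regions and at a higher one for 3178. A vehicle record lay within 5 kb on both sides of 1064 regions (16.8%, interval 15.9 to 17.8), and within 1 kb on both sides of 285. Seen from the vehicle list, 8882 of 97240 records (9.13%) had at least 1 vehicle-adjacent region within 5 kb. Of these, 8348 had 1, 499 had 2, 29 had 3, 3 had 4 and 3 had 5. New regions lay on both sides of 244 records, all of them among those with more than 1, since the 8348 with 1 could have it on 1 side only.

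The 3 records with 5 new regions shared the same 5. These filled the gap between chr17:77807756-77808337 below and the records chr17:77813516-77813826 and chr17:77814201-77814566 above. At 4 h the new regions had heights of 55.3, 57.4, 59.5, 71.2 and 48.4 in order of position, and at 24 h of 37.1, 34.1, 39.2, 36.6 and 43.2. The lower vehicle record had a height of 97.9 under vehicle, 51.5 at 4 h and 38.1 at 24 h, so at both GSK times it stood at the level of the new regions. The upper records reached 86.8 and 75.8 under vehicle and were in neither GSK list. Another record, chr19:46388393-46389421, had 3 new regions below it and 1 above, and stood at 91.2 under vehicle, 31.3 at 4 h and 19.8 at 24 h. Its new regions had heights of 19.7 to 34.0 at 4 h and 15.8 to 30.0 at 24 h.

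Both GSK times gave nearly the same heights in these regions. The rule asks for a record in both GSK lists, which limits how far the times can differ. Union regions of the 4 h list alone (21352) or the 24 h list alone (20809) are left out. The log2 ratio of 24 h to 4 h height had a median of -0.06 (quartiles -0.38 to 0.20), which is the value of an equal pileup in the 2 lists. It was above 0 in 41.0% (39.8 to 42.2) of the vehicle-adjacent regions, 42.6% of the distant ones and 42.5% of all 97441 GSK 4 h records that overlapped a 24 h record. At least 2-fold higher heights at 24 h were found in 47 regions (0.743%, against 2.43% of all such records), and at least 2-fold lower ones in 95 (1.5%, against 3.37%). The distant regions had similar shares, 0.897% and 1.7%, so the low frequency of large differences was found in inhibitor-only regions at either distance. Low records leave little room for a 2-fold difference while both are called, and the distant regions had median heights of only 6.91 and 6.61. How far this set the shares was not tested.

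The nearest vehicle records were next compared with the vehicle list as a whole. They were of ordinary height, with a median of 10.6 against 11 for all vehicle records, and a median fold percentile of 47.5 against 50. Their upper quartile was higher, at 24.0 against 20.6. They were somewhat shorter, with a median of 434 bp against 476 bp. The tallest 10% of the vehicle list, from a height of 44.6 upward, supplied 1015 of them, which is 16.0% (15.2 to 17.0) against 10% of all vehicle records.

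Most neighbours were still present after treatment. For 4431 regions (70.0%, 68.9 to 71.1) the nearest vehicle record was also in both GSK lists, against 78.7% of all vehicle records. It was in neither for 788 (12.5%, 11.7 to 13.3), against 8.28% of all. It was in the 4 h list alone for 494 and in the 24 h list alone for 616. The share in neither GSK list was 14.3% (12.7 to 16.1) below 250 bp, 7.69% (6.30 to 9.36) at 250 to 500 bp and 13.6% (11.9 to 15.5) at 2500 to 5000 bp. In those 788 cases the vehicle record was not called after treatment and a record of both GSK lists stood nearby. Where the neighbour was called in both GSK lists, it was mostly the taller of the pair. The new region was higher in 18.2% at 4 h and 16.4% at 24 h, and its height was a median of 0.706 and 0.722 times that of the neighbour.

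Vehicle records were then ranked by height into 10 height classes, with class 1 the lowest. Records of equal height were kept together, so a class held 5260 to 13550 records. The share with a new region within 5 kb was 8.02% (7.54 to 8.52) in class 1 and 8.21% (7.70 to 8.75) in class 7, with all classes between them at 7.62% to 8.59%. It was 10.4% (9.84 to 11.1) in class 9 and 14.5% (13.9 to 15.3) in class 10. The tallest vehicle records were thus flanked most often. They were also longer, since the median neighbour measured 259 bp in class 1 and 1117 bp in class 10, and the part of length in this share was not tested.

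**Figure D3:**
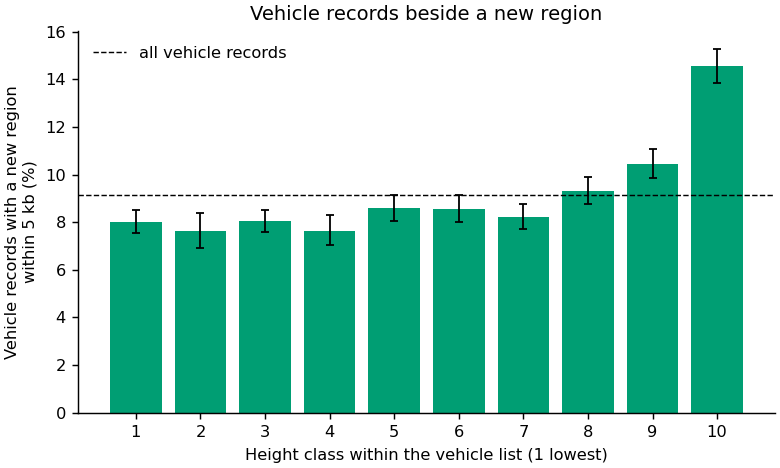
Share of vehicle records with a vehicle-adjacent region within 5 kb (%, y axis) by height class in the vehicle list (x axis, class 1 lowest), with 95% Wilson intervals as error bars and the share over all vehicle records, 9.13%, as a dashed line. Class 10 stands above the rest at 14.5%.

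The height of a new region followed that of its neighbour. With a neighbour in class 1, the median height was 6.91 at 4 h and 7.12 at 24 h, and in class 10 it was 25 and 21.4. Local background at the new region was higher too, from 1.05 and 1.19 in class 1 to 7.98 and 6.10 in class 10. The caller asks for a taller summit where background is higher, so the calling itself sets part of this order. How large that part is was not tested. At the neighbours themselves, in those called in all 3 lists, heights in class 1 were 5.28 under vehicle, 7.97 at 4 h and 7.63 at 24 h. In class 10 they were 98.8, 48.9 and 33.1. The new regions of class 10 were also lower at 24 h than at 4 h, with a median log2 ratio of -0.27. Of the 50 tallest new regions, 43 had a neighbour in class 10.

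**Figure D4:**
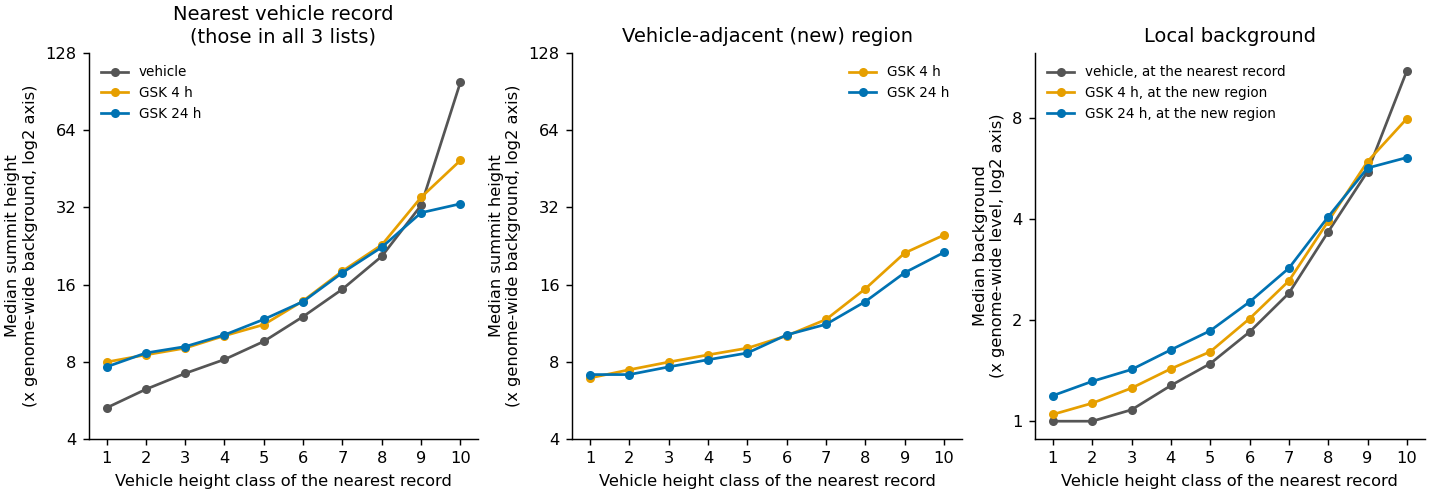
Median summit height of the nearest vehicle record (left, those in all 3 lists), median summit height of the vehicle-adjacent region (middle) and median local background (right), in multiples of genome-wide background on log2 axes, by height class of the neighbour under vehicle. New regions go from 6.91 in class 1 to 25 in class 10 at 4 h, while the tallest neighbours stand at 98.8 under vehicle and 33.1 at 24 h.

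Whether vehicle records beside a new region changed differently from the rest was examined within the same height classes. Both comparisons use the same vehicle list, and the classes were ranked on vehicle height, so counting error in that list alone raises the ratios of low classes and lowers those of high ones. In class 10, 1240 records with a new region had median heights of 93.6, 49.4 and 34.6 in the vehicle, 4 h and 24 h lists, and 8037 without one had 91.2, 51.0 and 36.6. The median log2 ratio to vehicle at 4 h was -1.08 with and -1.02 without a new region, and at 24 h it was -1.56 and -1.47. Heights at least 2-fold below vehicle were found in 54.9% and 50.9% at 4 h, and in 73.0% and 68.3% at 24 h. Over all 76572 vehicle records in both GSK lists, these shares were 6.75% and 9.09%. Low records had little room for such a drop, because they had to remain tall enough to be called in both GSK lists. In classes 1 to 3, up to a vehicle height of 7.68, 0 records were 2-fold lower at either time. The overall shares are therefore not a like comparison for class 10. Records of class 10 thus stood lower after treatment whether or not a new region was beside them, and by this ranking the offset between both kinds was small against their quartile range, -2.01 to -0.95 at 24 h with a new region.

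Over classes 1 to 9 together, the median log2 ratio was 0.29 (5143 records with a new region) and 0.35 (62152 without) at 4 h, and 0.24 for both at 24 h. In class 9 alone, the 24 h median was -0.02 with and 0.02 without a new region. The ratio depended on which list ranked the records. Ranked by the height in the GSK list outside the comparison, class 10 with a new region had a median of -0.32 at 4 h and -1.13 at 24 h, against -0.08 and -0.79 without one. In class 9 by that ranking, records with a new region had -0.02 at 4 h and -0.15 at 24 h, against 0.15 and -0.01 without one. In class 10 the direction was kept, the 4 h value moved most, and the offset between records with and without a new region was wider than by vehicle height.

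**Figure D5:**
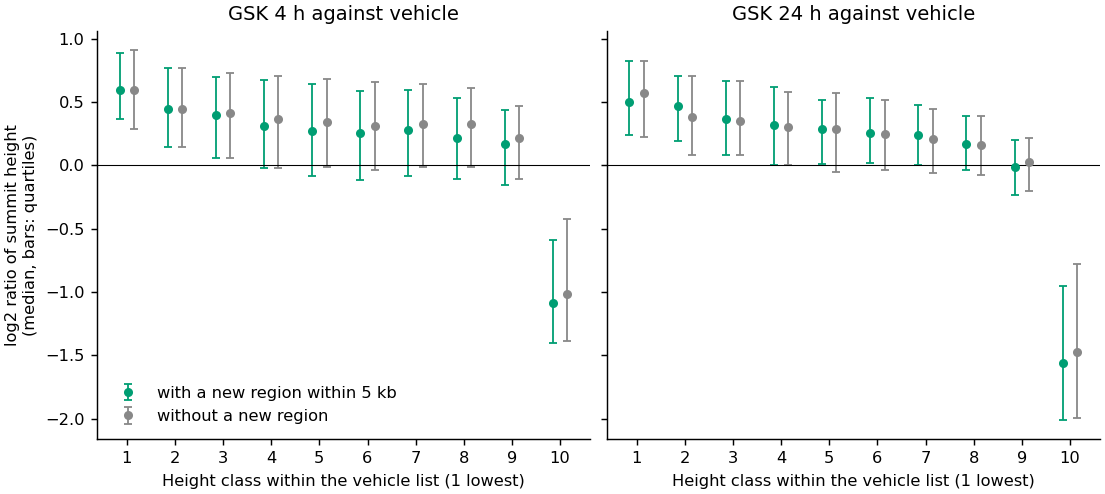
Median log2 ratio of summit height in the GSK 4 h list (left) and GSK 24 h list (right) to vehicle, by vehicle height class, for vehicle records with (green) and without (grey) a vehicle-adjacent region within 5 kb; bars span the quartiles. The 2 kinds overlap in every class, and class 10 is the lowest for both, at -1.08 and -1.02 at 4 h and -1.56 and -1.47 at 24 h.

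Absence from the vehicle list can lie just below its threshold, so each pileup was scaled to vehicle depth and set against the lowest pileup the vehicle list would call. At genome-wide background that pileup was 8, at the lowest -log10 p of the list (3.00). The median region stood at 1.78 times the requirement at 4 h and 1.70 times at 24 h when the background of the neighbour under vehicle was used. By this measure 235 regions (3.71%, 3.27 to 4.21) at 4 h and 436 (6.89%, 6.29 to 7.54) at 24 h would have been missed under vehicle at an unchanged height. With a neighbour in class 10 these were 185 (18.2%, 16.0 to 20.7) and 349 (34.4%, 31.5 to 37.4) of 1015. With the threshold at the 5th percentile of -log10 p of the vehicle list, chosen after seeing the data, the shares over all regions were 13.5% and 20.6%. For neighbours in class 10 they were 34.8% (353) and 57.7% (586). The requirement at the region's own GSK background is nearly the one that both GSK lists had already applied, and there the medians were 1.70 and 1.59 times. The medians with the neighbour's background were close to these, so being called in both GSK lists fixed much of the margin in advance. The shares above therefore cannot show how many absences from the vehicle list were threshold effects. Heights under vehicle at these places were not measured here, so whether and how far each region rose is unknown.

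The same arrangement was counted for the other pairs of lists. Of the inhibitor-only regions, 39.2% (38.5 to 40.0) lay within 5 kb of a vehicle record. Regions in vehicle and GSK 4 h but not GSK 24 h (4330, 2.94% of the union) lay within 5 kb of a GSK 24 h record in 58.4% (56.9 to 59.8). Regions in vehicle and GSK 24 h but not GSK 4 h (5635, 3.83%) lay within 5 kb of a GSK 4 h record in 56.0% (54.7 to 57.2). Within 1 kb the shares were 23.2%, 33.7% and 36.8%. In these lists as deposited, lying beside a record of the list a region is missing from was thus more frequent in the other pairs. The absent GSK lists hold more records than the vehicle list (124364 and 123292 against 97240). With the lists at an equal number of records, the inhibitor-only share was 43.4% and the other shares were 46.7% and 45.5%, so that most of the gap closed. With GSK records of -log10 q of at least 5, it was 44.8%, between the others at 41.2% and 46.6%. With GSK records of -log10 q of at least 10, the inhibitor-only share was the highest, at 66.3% against 28.2% and 26.3%. The cuts at 5 and 10 thinned the GSK lists and left the vehicle list whole. The other pairs were thus measured against sparser lists and the inhibitor-only regions were not, so these shares do not rank the pairs.

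By chromosome, the share of inhibitor-only regions that were vehicle-adjacent was lowest on chromosome 13 (30.8%, 26.8 to 35.2) and highest on chromosome 19 (59.2%, 53.4 to 64.7). Chromosome 13 held 24.0 vehicle records per Mb spanned, the fewest, and chromosome 19 held 65.0, the most. Per 100 vehicle records, the order was different, with 4.38 vehicle-adjacent regions on chromosome 19, the fewest, and 7.36 on chromosome 15, the most. On X and Y, which the rule leaves out, 148 of 493 and 33 of 85 inhibitor-only regions met the distance limit.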

How the data were processed

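For every group the authors deposited 1 narrowPeak list, in which both replicates are combined. Per the labels, the submitters' processing notes name BWA 0.7.2-r351, SAMtools 0.1.18, MACS2 2.0.10.20131216 and hg19; calling settings are not given in the sources used here. The deposited values of each record are a display score, a fold enrichment (a ratio to the caller's background), a -log10 p-value and a -log10 q-value, none of them normalised between lists.

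Records on chromosomes 1 to 22 were used (97240 vehicle, 124364 GSK 4 h and 123292 GSK 24 h). Whole-number pileups and backgrounds were recovered from fold and p-value with a tolerance of 0.001 on the -log10 p scale, which succeeded for all but 2 records. This reading of the caller, including the 10 kb window and the absence of an input control, is inferred from the values. The recovery was tested on simulated data. Depth is the genome-wide background (1.88 to 2.08) divided by the shortest record (186 to 221 bp). Where several records overlapped a region or a vehicle record, the highest was used. Python 3.11.15, numpy 2.4.6, pandas 2.3.3, scipy 1.17.1 and matplotlib 3.10.9 were used.

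The regions and comparisons were chosen with earlier results of these data known. Named regions are the 8 tallest, the 4 nearest, the 4 on each side of the limit and the 4 vehicle records with most new regions, leaving out chromosome 8. No gene or sequence was assigned, because the reference tables used here are of another build.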

Additional observations from a re-analysis of the deposited data

How the results depend on the processing

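No paired analysis was possible because the deposited lists combine replicates, which also prevented leaving a replicate out. Planned gene and sequence values were not run because no hg19 annotation was used here. Depth limits the heights: a median summit rests on 21 to 23 fragments. The cause of the movements below was not tested.

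Distance limit. Below 1000 bp there were 3741 regions, 23.2% of the inhibitor-only ones, with a median distance of 293 bp, a neighbour fold percentile of 44.7, a 4 h height of 10.6 and backgrounds of 2.03 and 2.26. Flanked vehicle records numbered 4190 (43 on both sides), and the shares of the other pairs were 33.7% and 36.8%. Below 2500 bp and 10000 bp the share was 30.6% and 55.5% and the median distance 424 bp and 1838 bp.

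Significance. With GSK records of -log10 q of at least 5, there were 2702 regions (44.8%, median distance 560 bp), 62.3% with a neighbour in both GSK lists, a fold percentile of 52.1, heights of 13.8 and 13.2, backgrounds of 2.71 and 2.83, 4058 flanked records (75 on both sides) and shares of 41.2% and 46.6% for the other pairs. At 10 these were 352 (66.3%, 420 bp), 59.9%, 78.3, heights of 28.2 and 24.4, backgrounds of 6.48 and 5.48, 565 (5 on both sides), 28.2% and 26.3%. With all lists at 5 or more there were 4095 regions (37.4%). With the lists at an equal 97240 records, there were 3173 regions (43.4%, 577 bp), 62.8%, 50.6, heights of 12.8 and 12.2, backgrounds of 2.52 and 2.61, 4729 (92 on both sides), 46.7% and 45.5%. Among settings for which the other pairs are given, the inhibitor-only share was above both only at 10, a cut on the GSK lists alone. That cut thins the lists against which the other pairs are measured and not the vehicle list, so it does not rank the pairs.

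Overlap and merging. With GSK records sharing 50% of both lengths, the share was 42.3%, neighbours in both GSK lists 71.2%, the 4 h height 10.6, backgrounds 1.95 and 2.12, records flanked on both sides 148, and the other pairs 60.7% and 58.6%. With records within 1 kb merged there were 2598 regions (19.8%, 2867 bp).

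Ratios and thresholds. Matched 1 to 1, the 24 h ratio of flanked records was 0.15 in place of 0.13. Ranked by the other GSK list, an alternative chosen after seeing the data, height class 10 was -0.32 at 4 h and -1.13 at 24 h. With the vehicle threshold at the 5th percentile of -log10 p, also chosen after seeing the data, 13.5% and 20.6% of regions would be missed. Including X and Y, and ranking by -log10 p, moved no value beyond its interval.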
